A study of Mus musculus with 12 samples.

Results

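The T cell receptor complex and its coreceptors were followed through 10 genes in RNA sequencing data of mouse prostate tumors: Trac, Trbc1 and Trbc2, Cd3d, Cd3e, Cd3g and Cd247, and Cd4, Cd8a and Cd8b1. They were chosen by name, as the rows of the count table whose Ensembl identifiers belong to these symbols, and make up 10 of the 55401 genes in the table. All 10 were among the 20818 genes that passed the filter on low counts and were tested in every comparison.

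TC2Ras is a mouse prostate cancer cell line, and each tumor grew for 21 days under the skin of both flanks of a mouse after injection of 125000 cells a flank, with the flanks of a mouse combined into 1 sample. All mice had been kept on low-arsenic chow and purified water before implantation. Control tumors came from TC2Ras cells alone in mice given water with 0 ppb inorganic arsenic (iAs). ASC tumors came from TC2Ras cells mixed with 1% ASC-GFP, primary adipose-derived stromal cells of transgenic male C57BL/6 mice that carry GFP under the ubiquitin C promoter. As300 tumors (A300 in the labels) came from TC2Ras cells alone in mice whose drinking water held 300 ppb iAs from implantation on, and ASC_As300 tumors (ASC300 in the labels) had both the ASC-GFP cells and the iAs. Each group held 3 samples, and the strain, sex and age of the mice that carried the tumors are not given in the sources used here. The labels name the cell type as stromal cells, but the protocols describe excised tumors, and the leukocyte gene Ptprc (CD45) was present in all 12 samples at 26.6 to 100.8 CPM (counts per 1000000 of the TMM-scaled library total).

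An alpha beta T cell recognises antigen with a receptor made of an alpha and a beta chain, whose constant parts are encoded by Trac and by either Trbc1 or Trbc2. These chains hardly reach into the cell, and the signal is passed on by the CD3 chains gamma, delta and epsilon (Cd3g, Cd3d, Cd3e) and the zeta chain (Cd247), whose cytoplasmic motifs are phosphorylated by Lck and then bound by Zap70. CD4 and CD8 are coreceptors that bind MHC class II and class I and bring Lck to the receptor. CD8 on most cytotoxic T cells is a heterodimer of the products of Cd8a and Cd8b1. Cd8a alone and Cd4 can also be made by some dendritic cells of the mouse. In bulk tumor RNA, fewer T cells and less of these transcripts per T cell cannot be told apart.

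Several of these genes are neighbours. On GRCm38 chromosome 9, Cd3g (44969572 to 44980431, minus strand) and Cd3d (44981786 to 44987339, plus strand) start 1354 bases apart and point away from each other, and Cd3e (44998740 to 45009627, minus strand) completes a block of 40056 bases. On chromosome 6 lie Trbc1 (41538218 to 41539881) and Trbc2 (41546730 to 41548352), then Cd8b1 (71322788 to 71337494) and Cd8a (71373427 to 71379173), all on the plus strand, and Cd4 (124864692 to 124888221) on the minus strand. Trac is on chromosome 14 (54220521 to 54224206, plus strand) and Cd247 on chromosome 1 (165788681 to 165877277, plus strand). Exons of Cd3e overlap 1 other annotated gene on the opposite strand, and those of Cd247 overlap 1 on each strand, so that their counts may hold reads of these genes, since the use of strand in counting is not given in the sources used here.

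The constant regions of the beta chain are near copies, so that their counts depend on how the authors' software placed shared reads. Over 518 coding bases the annotated transcripts of Trbc1 and Trbc2 differed at 23 (95.6% identity), and of the 375 coding bases of the first exon only 1 differed. Coding bases 241 to 480, where the shared stretch ends, are shown with the differing bases in capitals (GENCODE M21, GRCm38, chr6:41538218-41539881 and chr6:41546730-41548352, spliced, plus strand). They hold 15 of the 23 differences.
Trbc1: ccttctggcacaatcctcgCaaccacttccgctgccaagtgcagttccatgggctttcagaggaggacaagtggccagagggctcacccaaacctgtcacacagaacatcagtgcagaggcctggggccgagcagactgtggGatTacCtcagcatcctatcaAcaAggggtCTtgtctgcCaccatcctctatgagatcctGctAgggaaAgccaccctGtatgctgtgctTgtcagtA
Trbc2: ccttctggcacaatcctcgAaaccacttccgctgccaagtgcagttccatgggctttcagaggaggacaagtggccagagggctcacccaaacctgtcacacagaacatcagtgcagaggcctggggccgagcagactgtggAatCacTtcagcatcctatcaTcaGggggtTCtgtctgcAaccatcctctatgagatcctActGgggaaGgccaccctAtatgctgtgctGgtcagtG
The levels of these genes are therefore given separately below but are uncertain as separate values.

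RefSeq promoters (GRCm38.p6) were at hand for 5 of the 10 genes: Cd3d, Cd3e, Cd3g, Cd247 and Cd8a. The 250 bases before the start site are shown for 3 of them. Cd8a was the gene of the 10 that passed the main test, Cd3e was the reference for likeness, and Cd247 differed least of the signalling chains. Both strands were searched for the letters TGTGGT of RUNX factors, AGATAA of GATA factors, AGGAAG of ETS factors, CTTTGA of TCF/LEF factors, CANNTG of the E box and TATAAA of the TATA box, and matches are in capitals. No matches overlapped.
Cd8a, chr6:71373177-71373426, plus strand: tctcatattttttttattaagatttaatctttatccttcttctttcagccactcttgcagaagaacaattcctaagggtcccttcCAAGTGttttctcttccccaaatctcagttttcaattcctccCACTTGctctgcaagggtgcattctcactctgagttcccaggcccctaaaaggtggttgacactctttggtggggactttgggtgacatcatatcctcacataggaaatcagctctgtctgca
Cd3e, chr9:45009612-45009861, minus strand: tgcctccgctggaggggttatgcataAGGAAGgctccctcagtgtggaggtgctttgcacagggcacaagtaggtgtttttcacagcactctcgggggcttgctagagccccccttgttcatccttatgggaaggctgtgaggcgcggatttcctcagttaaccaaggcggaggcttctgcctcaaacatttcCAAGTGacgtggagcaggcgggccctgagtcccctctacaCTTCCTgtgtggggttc
Cd247, chr1:165788431-165788680, plus strand: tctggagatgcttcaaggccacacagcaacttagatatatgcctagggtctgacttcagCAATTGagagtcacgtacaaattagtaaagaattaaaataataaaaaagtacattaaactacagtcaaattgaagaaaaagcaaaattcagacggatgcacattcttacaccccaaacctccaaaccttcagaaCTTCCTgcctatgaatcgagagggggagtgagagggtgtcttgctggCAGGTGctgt
E box letters were found in all 5 promoters, against 66.2% of the 32851 promoter windows of the same length, and ETS letters in 3 of the 5 (Cd3d, Cd3e and Cd247), against 29.5% of all windows. Cd3d held 2 TCF/LEF matches (13.8% of all windows had one) and Cd3g held 1 GATA match (9.99%). RUNX letters (14% of windows) and TATA box letters (12.4%) were in none of the 5 windows. These are matches of letters alone.

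Total counts ran from 39157647 to 55168642 per tumor. Control replicate 1 stood apart from the other Control tumors before any comparison is made. Genes of B cells and of lymph node tissue were high in it: the summed level of 8 B cell genes was 230.0 CPM against 2.74 to 15.6 in the other 11 tumors, and that of 6 genes of lymph node stroma and high endothelium was 55.5 CPM against 0.194 to 2.75. A sum of 6 epithelial genes was also highest there, at 361 CPM against 25.5 to 118. Each of the 10 receptor and coreceptor genes was higher in this tumor than in either other Control tumor, by 2.76 times the mean of those (Cd4) to 10.45 times (Cd3e). Results are therefore given with and without it. Since it was singled out with its values known, p-values from fits without it are descriptions of the remaining 11 tumors.

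Of the antigen-binding chains, Trbc2 had the highest level per kilobase of exon in all 4 groups. In ASC tumors it stood at 14.2 ± 4.26 CPM per kb (SD, n = 3), Trac at 8.31 ± 4.05 and Trbc1 at 7.10 ± 2.03, and in As300 tumors they stood at 3.21 ± 0.248, 2.22 ± 0.849 and 3.15 ± 0.422 (SD, n = 3). Neighbours among these 3 genes overlapped in both groups. In As300 tumors all 3 genes lay above the next gene in the order, and in ASC tumors the lowest value of Trac (5.26) was just below the highest of Cd8b1 (5.37). Trbc2 measured 6.52, 12.1 and 10.9 CPM in the ASC tumors, 6.91, 7.01 and 13.2 in the ASC_As300 tumors and 2.10, 2.15 and 2.42 in the As300 tumors. In Control tumors it measured 17.0 in replicate 1 and 2.73 and 1.26 in the others. The 6 tumors with ASC thus lay above 5 of the 6 without, and the remaining tumor, Control replicate 1, was the highest of all 12. Trac ran from 4.92 to 12.1 CPM in the 6 ASC-containing tumors and from 1.19 to 2.70 in the 5 others, with 9.94 in Control replicate 1. Trbc1 ran from 4.19 to 7.05 and from 2.02 to 2.72, with 8.74 in Control replicate 1.

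The CD3 chains had the same arrangement. Cd3e measured 3.97, 5.25 and 8.20 CPM in ASC, 4.93, 3.87 and 7.04 in ASC_As300, 0.675, 0.920 and 1.36 in As300, and 7.21, 1.06 and 0.325 in Control. No ASC-containing tumor overlapped with the As300 tumors or with Control replicates 2 and 3. Cd3g ranged from 3.89 to 9.18 CPM with ASC and from 0.902 to 1.60 in those 5 tumors, and Cd3d from 2.94 to 4.24 and from 0.824 to 1.33. In Control replicate 1 these genes stood at 7.61 and 4.88 CPM. Cd247, which encodes the zeta chain, measured 2.59, 4.10 and 3.24 CPM in ASC, 2.72, 2.65 and 2.18 in ASC_As300, 0.650, 1.12 and 1.57 in As300, and 5.87, 1.23 and 0.564 in Control. Its groups were likewise apart once Control replicate 1 was set aside, but closer together than those of Cd3e. Per kilobase Cd247 was the lowest of the 10 genes in every group, at 0.621 ± 0.142 CPM per kb in ASC and 0.209 ± 0.0864 in As300 (SD, n = 3).

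The coreceptors went separate ways. Cd8a measured 14.9, 10.85 and 16.9 CPM in ASC, 14.9, 8.67 and 20.8 in ASC_As300, 1.45, 0.940 and 2.14 in As300, and 15.8, 2.32 and 1.74 in Control. Cd8b1 measured 5.71, 7.91 and 7.97 CPM in ASC, 4.52, 3.22 and 7.95 in ASC_As300, 0.350, 0.327 and 1.62 in As300, and 6.2, 0.806 and 0.521 in Control. Both CD8 genes separated all 6 ASC-containing tumors from the 5 other tumors without Control replicate 1. Cd4 measured 6.52, 6.67 and 3.10 CPM in ASC, 6.91, 6.34 and 4.85 in ASC_As300, 3.60, 4.68 and 4.94 in As300, and 15.1, 5.30 and 5.64 in Control. The tumors with and without ASC overlapped at either iAs level. The lowest tumor of all 12, ASC replicate 3, was also the one with the highest Cd3e. Per kilobase, Cd4 stood at 1.09 ± 0.176 CPM per kb in As300 tumors, Cd8b1 at 0.517 ± 0.501 and Cd8a at 0.415 ± 0.165 (SD, n = 3), and the lowest tumor for Cd4 (0.893) was above the highest for Cd8a (0.587) but not for Cd8b1 (1.1). In ASC tumors the order was turned, with Cd8b1 at 4.85 ± 0.868, Cd8a at 3.91 ± 0.850 and Cd4 at 1.35 ± 0.501 CPM per kb (SD, n = 3), and no tumor of either CD8 gene reached down to those of Cd4.

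**Figure D1:**
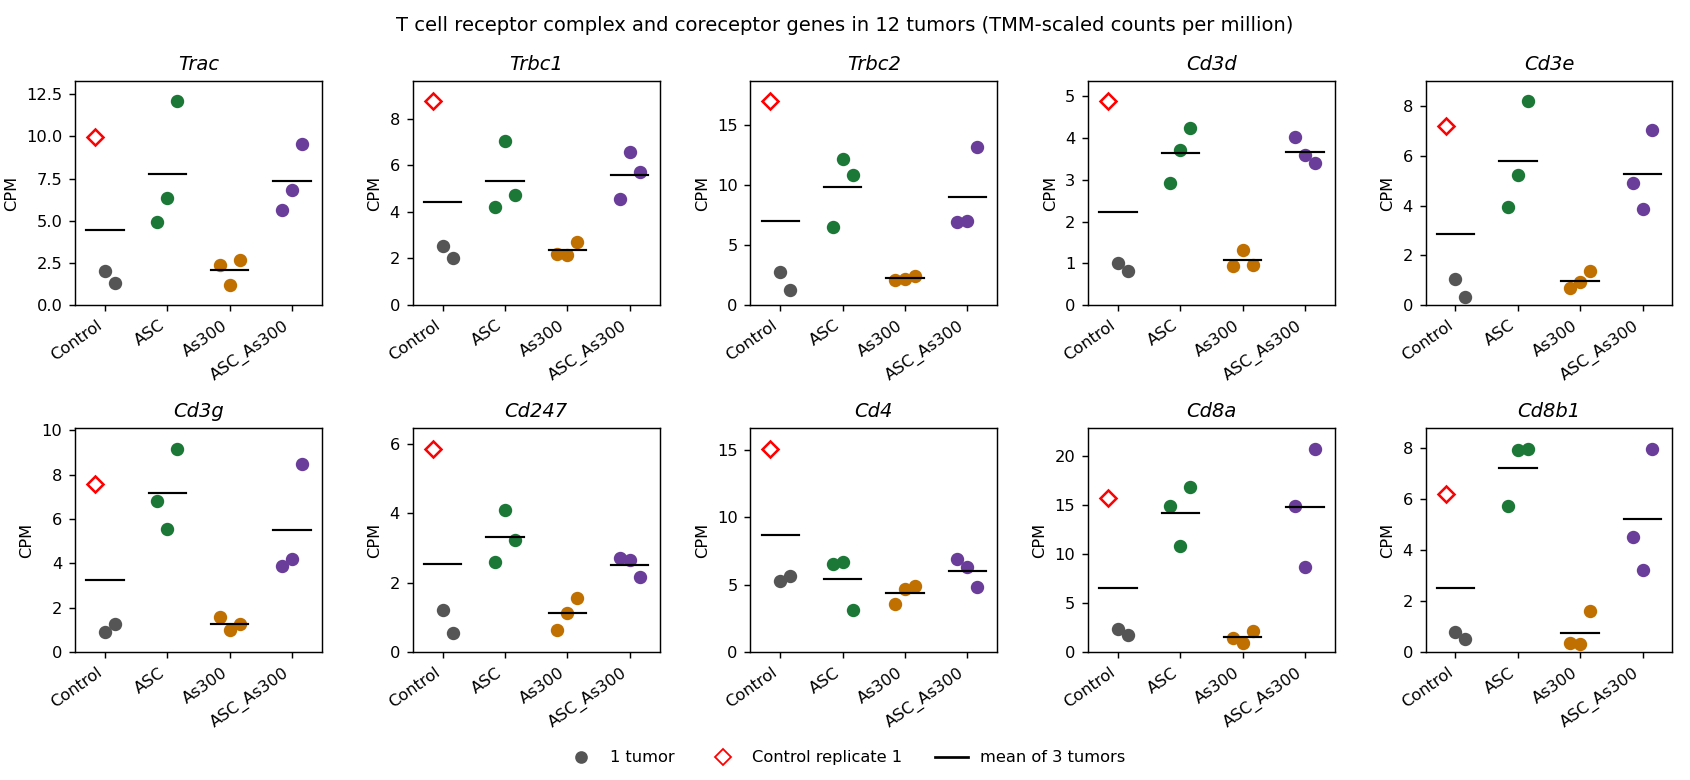
TMM-scaled CPM (vertical axis, linear from 0) of the 10 genes in the 12 tumors by group, 1 point per tumor, with a line at the mean of 3 and Control replicate 1 as an open diamond. For 9 genes the 6 tumors of ASC and ASC_As300 lie above the 3 As300 tumors and Control replicates 2 and 3, while for Cd4 the tumors with ASC overlap with those without.

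The comparison of tumors with and without ASC asks how the stromal cells bear on T cell receptor transcripts in the tumor. Over both iAs levels, Cd8a was higher with ASC by 2.20 on the log2 scale (SE 0.49, 95% interval 1.13 to 3.26), and was the only gene of the 10 called, with edgeR (quasi-likelihood test, adjusted p = 0.0381). Throughout, genes were called at an adjusted p below 0.05 where they also differed 1.5-fold or more, and 1.45% of the 20818 genes tested were called in this comparison. Cd8b1 followed with 2.13 (SE 0.59, adjusted p = 0.119), Cd3e with 1.72 (SE 0.56, adjusted p = 0.216) and Cd3g with 1.62 (SE 0.46, adjusted p = 0.129). Trac, Trbc2 and Cd3d were higher by 1.31, 1.26 and 1.24, Cd247 by 0.77 and Trbc1 by 0.75, and none of these was called. Cd4 differed by -0.11 (95% interval -0.72 to 0.49). At an unadjusted p under 0.05 with the 1.5-fold minimum, 8 of the 10 genes passed, all higher, against 4.59% of all genes. The median of the 10 was 1.29, beside 0.00 over all genes tested. DESeq2's Wald test called 3 of them, Cd8a, Cd3d and Cd8b1, where it called 1.16% of 33784 genes up. The Cd8a call was kept in 2 of 12 fits with a single tumor removed (ASC_As300 replicate 2 or Control replicate 1). Its adjusted p ran from 6.21e-05 to 0.109 over all alternatives, with its fold change between 1.97 and 3.04.

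Without Control replicate 1, 9 of the 10 genes were called up in the ASC comparison over both iAs levels, all but Cd4, where 1.86% of 21664 genes were called up. The log2 fold changes were then 3.09 for Cd8b1 (SE 0.45), 3.04 for Cd8a (SE 0.28), 2.73 for Cd3e (SE 0.35), 2.41 for Cd3g (SE 0.27), 2.16 for Trbc2 (SE 0.27), 2.01 for Trac (SE 0.31), 1.88 for Cd3d (SE 0.20), 1.52 for Cd247 (SE 0.29) and 1.23 for Trbc1 (SE 0.19). The adjusted p-values of these 9 ran from 6.21e-05 (Cd8a) to 0.0141 (Cd247). The CD8 genes were thus at the top of the 10 and Trbc1 and Cd247 at the lower end of those called. Cd4 differed by 0.22 (95% interval -0.24 to 0.67, adjusted p = 0.786). In the same 11 tumors, all 6 with ASC lay above all 5 without for these 9 genes, which was so for 2.62% of the 20818 genes.

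**Figure D2:**
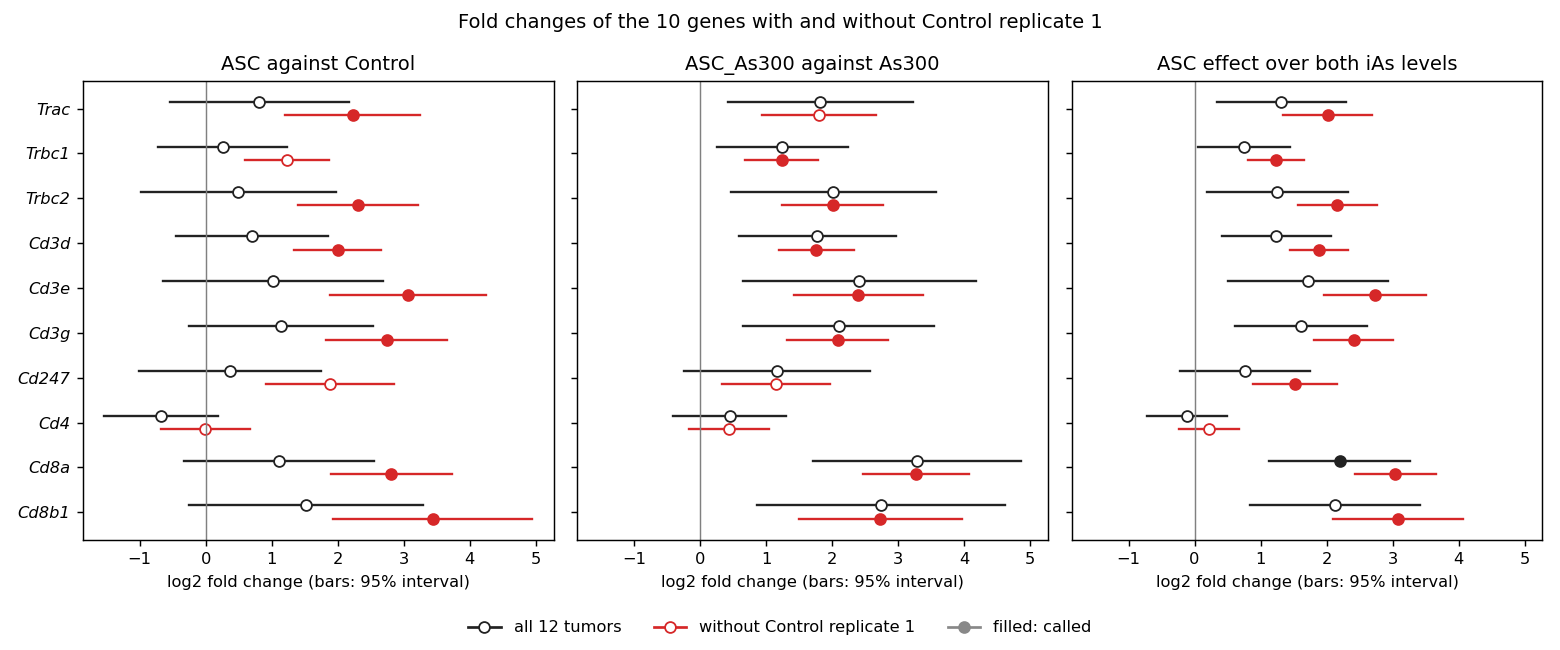
Log2 fold changes (horizontal axis) of the 10 genes with 95% intervals in 3 comparisons, from all 12 tumors in black and without Control replicate 1 in red, filled where called. The interval of Cd4 without Control replicate 1 includes 0 in each panel, and in the middle panel, which compares no Control tumor, the 2 fits give nearly the same fold changes with shorter intervals in red.

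With iAs in both groups, ASC_As300 against As300 compares tumors with and without ASC and uses no Control tumor in its means. The 3 ASC_As300 tumors lay above the 3 As300 tumors for 9 of the 10 genes, all but Cd4, against 11.3% of the genes tested. The ratio of the group means of CPM was 9.81 for Cd8a, 6.82 for Cd8b1, 5.36 for Cd3e, 4.28 for Cd3g, 4.07 for Trbc2, 3.53 for Trac and 3.43 for Cd3d. It was lower for Trbc1 (2.38) and Cd247 (2.25) and 1.37 for Cd4. In the fit to all 12 tumors none of the 10 was called, where 0.855% of all genes were, and 8 passed at an unadjusted p under 0.05 (5.47% of all genes), all but Cd247 and Cd4. Cd8a came nearest, with a log2 fold change of 3.29 (SE 0.73, adjusted p = 0.0624). DESeq2 called Cd8a and Cd3d, where it called 0.912% of genes up. A fit to only these 6 tumors called 7 of the 10 up, where 1.16% of 19280 genes were, among them Cd8a (3.27, SE 0.39, adjusted p = 0.0042), Cd3e (2.40, SE 0.34, adjusted p = 0.011) and Trbc2 (2.0, SE 0.29, adjusted p = 0.0107). Leaving out Control replicate 1 alone also gave 7 calls (1.07% of genes called up), with a median of the 10 fold changes of 1.91 beside 1.92 with that tumor in the fit. The SE of Cd8a then was 0.37 in place of 0.73. The fold changes of this comparison hardly moved and their errors shrank when Control replicate 1, which belongs to neither group, no longer entered the estimate of the spread. Over all alternatives, the adjusted p of Cd8a in this comparison ran from 0.000626 to 0.284.

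ASC against Control rests on the Control tumors and depended on replicate 1. None of the 10 genes was called or passed at an unadjusted p under 0.05 in the fit to all tumors, where 0.721% of all genes were called and 4.89% passed unadjusted, and DESeq2 called none. Log2 fold changes ran from -0.68 for Cd4 (95% interval -1.53 to 0.18) to 1.52 for Cd8b1 (95% interval -0.25 to 3.29). No gene of the 10 had all 3 ASC tumors above all 3 Control tumors, against 9.94% of genes. Without Control replicate 1, 7 of the 10 were called up (0.979% of genes called up). These were Cd8b1 (3.44, SE 0.69, adjusted p = 0.0388), Cd3e (3.07, SE 0.54, adjusted p = 0.0177), Cd8a (2.81, SE 0.42, adjusted p = 0.00655), Cd3g (2.74, SE 0.42, adjusted p = 0.00697), Trbc2 (2.31), Trac (2.23) and Cd3d (2.0). Cd247 (1.89, adjusted p = 0.0796) and Trbc1 (1.23, adjusted p = 0.0824) were not called, and Cd4 was at 0.00 (95% interval -0.68 to 0.67).

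In ASC_As300 against Control, likewise, none of the 10 was called or passed unadjusted (0.807% of genes called, 4.9% unadjusted), and no gene of the 10 had its groups apart, against 13.5% of genes. After leaving out Control replicate 1, Cd3d, Cd3e, Cd3g, Cd8a and Trbc2 were called up (0.919% of genes called up), with log2 fold changes of 2.01 to 2.93. Cd4 was at -0.53 with all tumors and at 0.14 without Control replicate 1.

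The comparisons of iAs ask whether arsenic in the drinking water changed these transcripts, alone or with ASC. In As300 against Control, all 10 genes were lower, with log2 fold changes from -2.12 (Cd8a, SE 0.70, adjusted p = 0.0953) to -0.91 (Trbc1, SE 0.46). None was called, where 1.06% of all genes were, and Cd8a, Trbc2 and Cd4 passed at an unadjusted p under 0.05 (7.27% of all genes). DESeq2 called none. Removing Control replicate 2 raised the unadjusted count from 3 to 9, and removing replicate 3 raised it to 10. Removing As300 replicate 1 or 2 lowered it to 1, and none was called in any of these fits. The share of all genes passing unadjusted in these fits is not given here. Whether their counts are particular to the 10 genes was not tested. With Control replicate 1 left out, the unadjusted count was 0. The direction of 8 of the 10 then turned, to fold changes between 0.06 and 0.53. Cd8a stood at -0.41 and Cd4 at -0.29, and the lowest adjusted p was 0.624. No difference of As300 from the other 2 Control tumors was detectable. For Cd8a, the 95% interval without that tumor was -1.26 to 0.45.

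In ASC_As300 against ASC, both groups being free of Control replicate 1, the 10 fold changes ran from -0.46 (Cd8b1) to 0.15 (Cd4), with a median of -0.10. None was called or passed unadjusted, where 0.0% and 2.06% of all genes did, and DESeq2 called none. The 95% interval was -1.36 to 1.48 for Cd8a and -1.78 to 1.51 for Cd3e, so that differences of 2-fold in either direction were within these intervals. In the fit without Control replicate 1 that of Cd8a was -0.67 to 0.77.

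Over both ASC levels, the iAs difference was below 0 for all 10 genes, from -1.07 (Cd8b1) to -0.41 (Cd4). None was called (0.0% of genes called) and Cd8a alone passed unadjusted, with -1.03 (SE 0.48, adjusted p = 0.312), against 3.29% of genes. Without Control replicate 1 the 10 values lay between -0.18 and 0.19. The interaction, the difference between the ASC effect with and without iAs, was above 0 for all 10 genes. It was called for none (0.0% of genes) and passed unadjusted for Cd8a only (2.18, SE 0.95, adjusted p = 0.35), against 5.82% of genes. Without Control replicate 1 the median of the 10 interactions was -0.36 and none passed unadjusted. DESeq2 called none of the 10 in these comparisons, and its interaction fit left 6 without an adjusted p-value.

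Ratios of 2 genes within a tumor do not depend on the scaling between tumors. The count of Cd8a over that of Cd4, with 2 added to each, was 2.28, 1.62 and 5.39 in ASC, 2.16, 1.37 and 4.27 in ASC_As300, 0.411, 0.208 and 0.436 in As300, and 1.04, 0.442 and 0.313 in Control. All 6 ASC-containing tumors had more counts of Cd8a than of Cd4 and lay above all 6 others, Control replicate 1 included. The difference of the mean log2 ratios was 2.58 (1.33 ± 0.78 against -1.26 ± 0.77, SD, n = 6 each; exact two-sided permutation p = 0.00217, the smallest that 6 against 6 tumors can give, adjusted p = 0.00866 over 8 tests). The call was kept in all 14 alternatives, where the difference was 2.36 to 2.85 and the highest exact permutation adjusted p 0.0173. Without Control replicate 1 the difference was 2.85 (exact permutation adjusted p = 0.00866). The iAs difference in this ratio was -0.44 (exact permutation p = 0.641, adjusted p = 0.819). The ASC difference stayed in the spread of that test (SD 1.66 with iAs and 1.52 without), so that it had little power.

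Cd247 over Cd3e was lower with ASC, by -1.07 on the log2 scale (-0.89 ± 0.51 against 0.18 ± 0.34, SD, n = 6 each; exact permutation p = 0.00217, adjusted p = 0.00866). The ratio was 0.657, 0.783 and 0.398 in ASC, 0.554, 0.687 and 0.313 in ASC_As300, 0.966, 1.21 and 1.15 in As300, and 0.815, 1.16 and 1.65 in Control. The ASC-containing tumors all lay below the others, by a narrow margin, since ASC replicate 2 and Control replicate 1 were next to each other at 0.783 and 0.815. The call held in all 14 alternatives, at -1.18 to -0.91 and a highest exact permutation adjusted p of 0.0173. Some tumors without ASC had few counts, such as 15 of Cd3e and 26 of Cd247 in Control replicate 3, and 27 and 26 in As300 replicate 1. Which cells made the transcripts of either gene was not tested, so that the ratio is one of the whole tumor and not of a T cell. Reads of the 2 genes whose exons overlap with those of Cd247 may enter this ratio, and their part was not tested. The iAs difference was -0.16 (exact permutation p = 0.717, adjusted p = 0.819).

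Cd3e over Ptprc sets T cell receptor transcripts against a protein found on all nucleated blood cells. It was higher with ASC by 1.65 on the log2 scale (-3.64 ± 0.67 against -5.28 ± 1.01, SD, n = 6 each; exact permutation p = 0.00866, adjusted p = 0.0231). The ratio ran from 0.0453 to 0.162 with ASC and from 0.00923 to 0.0361 in the 5 other tumors, with 0.072 in Control replicate 1, so that the groups overlapped only through that tumor. Without it the difference was 1.94 (exact permutation adjusted p = 0.00866). Without ASC_As300 replicate 1, ASC_As300 replicate 3 or ASC replicate 3 the call was lost, each at an adjusted p of 0.052 and with differences of 1.65, 1.56 and 1.45. The iAs difference was 0.07 (exact permutation p = 0.918).

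Cd8b1 over Cd8a did not differ detectably between tumors with and without ASC (difference 0.13 on the log2 scale, exact permutation p = 0.636, adjusted p = 0.819) or with and without iAs (-0.14, exact permutation p = 0.597, adjusted p = 0.819). The direction of the ASC difference turned to -0.04 when 10 counts were added to each gene. The log2 ratio was -1.24 ± 0.43 with ASC and -1.37 ± 0.52 without (SD, n = 6 each), and its highest and lowest tumors, at 0.764 and 0.267, were both As300 tumors with few counts.

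**Figure D3:**
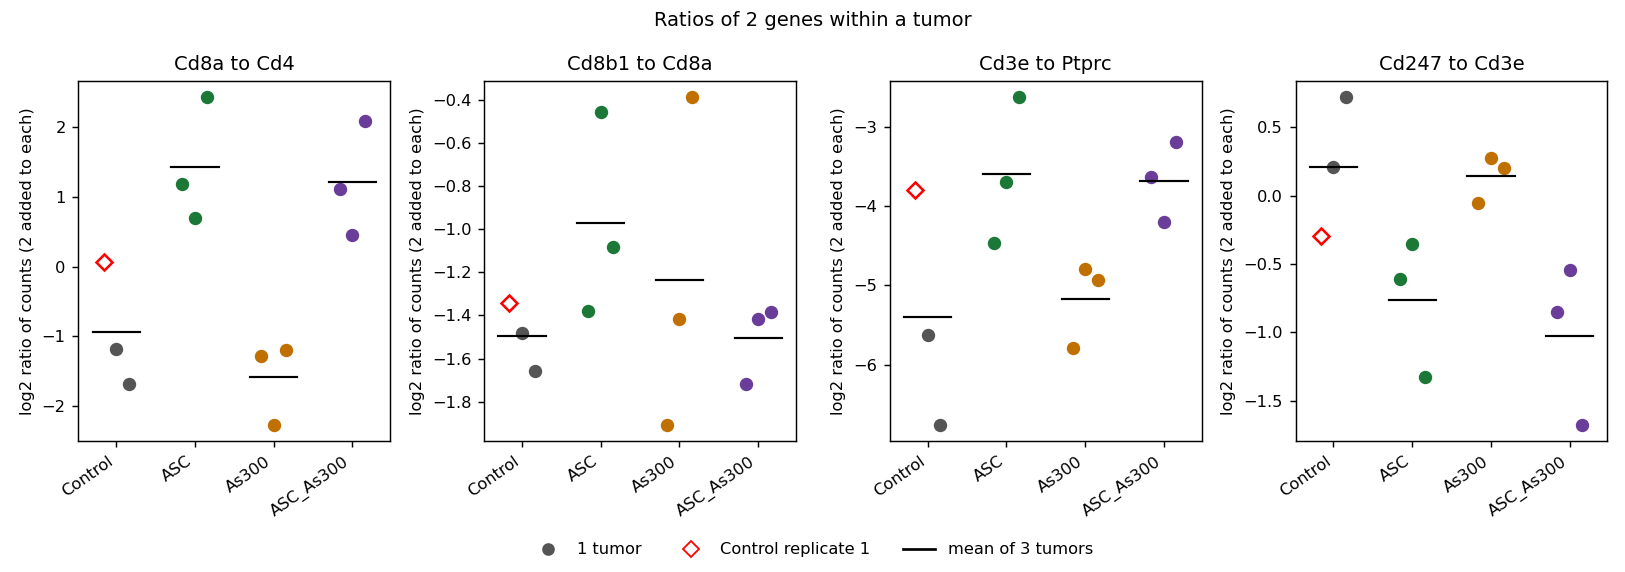
Log2 ratio of the counts of 2 genes in each tumor (vertical axes, with 2 added to each count) by group, with a line at the mean of 3 tumors and Control replicate 1 as an open diamond. Cd8a to Cd4 lies above 0.44 in all ASC-containing tumors and at or below 0.06 in all others, and Cd247 to Cd3e lies lower with ASC.

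Other genes of the pathway were followed as lists. Among 18 kinases and adaptors close to the receptor, all tested, 16 were higher with ASC over both iAs levels and 2 lower, and 2 were called up: Zap70, the kinase that binds the phosphorylated chains (1.29, SE 0.29, adjusted p = 0.0382), and Lcp2, the adaptor SLP-76 (0.72, SE 0.14, adjusted p = 0.0182). The median was 0.58, against 0.00 over all genes. Zap70 measured 3.54 to 4.77 CPM in ASC, 2.83 to 5.45 in ASC_As300, 1.25 to 1.62 in As300 and 3.72, 1.29 and 1.28 in Control. In ASC_As300 against As300 all 18 were higher, with a median of 0.98. In the 11 tumors without Control replicate 1, 8 of the 18 were called up over both iAs levels, among them Lck, the kinase that first phosphorylates the chains (1.51, SE 0.17, adjusted p = 0.000356), Grap2 (1.93, SE 0.24) and Themis (3.23, SE 0.60). Lat, the membrane scaffold downstream of Zap70, was also among these 8 (1.39, SE 0.20).

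All 8 costimulatory and adhesion receptors of T cells were higher with ASC over both iAs levels, with a median of 0.74, and none was called. The smallest p-values were those of Cd226 (1.1, adjusted p = 0.235), Cd28 (0.96, adjusted p = 0.254), Cd27 (1.21, adjusted p = 0.284) and Thy1 (0.33, adjusted p = 0.414). With Control replicate 1 left out, Cd5, Cd6, Cd27 and Cd28 were called up, with fold changes of 1.33 to 1.83. The 10 inhibitors of receptor signalling had a median of 0.11, with 7 higher and 3 lower and none called. Ptpn6, the phosphatase SHP-1, had the smallest p-value of them (0.73, SE 0.18, adjusted p = 0.0735) and was called without Control replicate 1 (0.99, SE 0.09). In that fit 9 of the 10 inhibitors were higher and 1 lower, with a median of 0.345.

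Of 9 transcription factors of the T lineage, 5 were higher and 4 lower, with a median of 0.01. Tox, a nuclear factor known from T cells under lasting stimulation and from T cell development, was called with ASC over both iAs levels (2.36, SE 0.39, adjusted p = 0.0055), and in ASC_As300 against As300 (2.70, SE 0.56, adjusted p = 0.0461). It measured 3.89, 2.84 and 4.78 CPM in ASC, 1.88, 2.82 and 4.93 in ASC_As300, 0.650, 0.286 and 0.547 in As300, and 1.78, 0.672 and 0.391 in Control, so that every ASC-containing tumor lay above every other tumor. The 6 genes of naive and recirculating T cells, among them Ccr7, were as often lower as higher (3 and 3), with a median of 0.01 and none called. Klf2, Il7r and S1pr1 lay between -0.15 and 0.32. Without Control replicate 1, 4 of these 6 genes were higher and 2 lower, with a median of 0.31 and none called. Of the 9 transcription factors, 8 were then higher and 1 lower, with a median of 0.18.

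**Figure D4:**
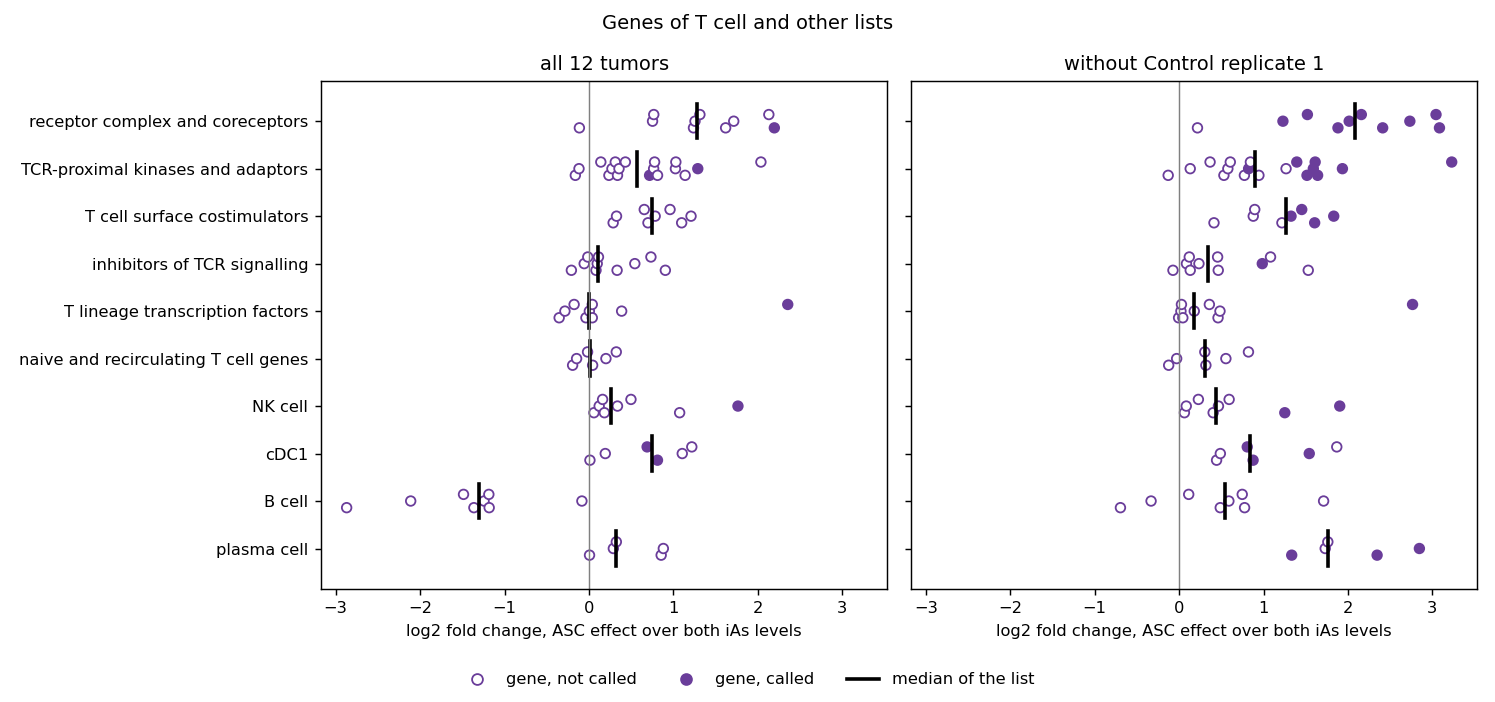
Log2 fold change of each tested gene (points) for the ASC effect over both iAs levels in 10 gene lists, with all 12 tumors on the left and without Control replicate 1 on the right, filled where called, and a line at the median. The medians of the receptor complex and coreceptors are 1.29 and 2.09, and that of the B cell list moves from -1.30 to 0.54.

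Transcripts of other cell types were compared in the same way, and their lists did not all share a direction. The sum of 8 NK cell genes was 50.3 to 72.0 CPM in the 6 ASC-containing tumors and 40.2 to 50.8 in the others, so that the ranges touched, and Klrk1 (NKG2D), which is also made by CD8 T cells, was the 1 gene of that list called (1.77, SE 0.22, adjusted p = 0.000721), also in ASC_As300 against As300 (2.28, SE 0.32). The sum of 6 genes of type 1 conventional dendritic cells, a type that can carry Cd8a, was 61.6 to 80.2 CPM with ASC and 32.7 to 47.0 in 5 of the tumors without, with 81.1 in Control replicate 1, and Batf3 (0.81) and Irf8 (0.69) of this list were called. The sum of 4 general leukocyte genes was 366 to 475 CPM with ASC and 207 to 288 without, with 393 in Control replicate 1, and the integrin gene Itgb2 of this list was called (0.81, SE 0.13). The sum of 7 macrophage genes was 1130 to 1500 CPM with ASC and 691 to 1060 without, with C1qb called (0.61, SE 0.09). Of these genes, 6 were higher with ASC and 1 lower, with a median of 0.48. Only C1qa, C1qb and C1qc had all ASC-containing tumors above the others, C1qb at 277.7 to 357.0 CPM against 142.1 to 244.7. Adgre1, Cd68, Csf1r and Mertk overlapped, Csf1r at 150.9 to 228.2 CPM against 123.1 to 189.4. Bst2, an interferon-induced gene in the list of plasmacytoid dendritic cells, was called at 1.17 (SE 0.13), and the sum of that list was 188 to 267 CPM with ASC and 136 to 184 without. Of the 4 genes of that list, however, 2 were higher with ASC and 2 lower, with a median of 0.17 and a lowest value of -0.69. The epithelial sum was lower with ASC, at 25.5 to 47.1 CPM against 64.7 to 361, and Krt8 of this list was called at -2.03 (SE 0.34). The 6 epithelial genes did not share a direction: 4 were lower and 2 higher, with a median of -0.32 and a highest value of 2.62. Without Control replicate 1, 3 were lower and 3 higher, with a median of -0.04. None of the 8 B cell genes was called. All 8 were lower with ASC in the fit to all tumors, while without Control replicate 1, 6 were higher and 2 lower. The sum of 6 plasma cell genes was 31.4 to 60.7 CPM with ASC and 10.5 to 16.1 without, with 317 in Control replicate 1. The part of these cells in the results on the 10 genes was not tested.

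Across the 12 tumors, the log2 CPM of Cd3e had Pearson correlations of 0.904 to 0.972 with 8 of the 9 other genes and of 0.312 with Cd4 (0.111 over the 11 tumors without Control replicate 1). Among all genes tested other than these 10 and receptor gene segments, the 8 most like Cd3e were Rac2 (0.966), Ptpn6 (0.953), Pml (0.953), H2-T10 (0.948), H2-Q6 (0.947), Cd52 (0.936), Nkg7 (0.932) and A430093F15Rik (0.928). Over the 11 tumors Nkg7, a granule protein of cytotoxic lymphocytes, was at 0.987. Nkg7 measured 8.46, 9.03 and 17.1 CPM in ASC and 8.25, 7.49 and 16.1 in ASC_As300, against 1.08 to 3.07 in the 5 other tumors and 4.71 in Control replicate 1. Rac2, a GTPase of blood cells, measured 40.2 to 47.4 CPM with ASC, 19.1 to 30.7 in the 5 other tumors and 61.1 in Control replicate 1. These correlations are descriptions over tumors that share their group differences.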

How the data were processed

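Poly(A) RNA of 12 tumors, 3 in each of 4 groups, was sequenced from paired ends with a stranded library kit. According to the study's methods and processing notes, the authors used cutadapt 1.1.0 for trimming, HISAT2 2.0 for alignment and StringTie 1.3.4 for quantification. The deposited values are whole-number counts without normalization for 55401 Ensembl genes, and 55141 of these have a symbol in the annotation used here. The genome build and the step that made the counts are not given in the sources used here. Of the low counts, 4 and 8 occurred more often than their neighbours (1137 to 1298 genes at 4 counts in a tumor, 380 to 414 at 5), so that the number of counts per read pair is unknown. Coordinates are those of GENCODE M21 on GRCm38, matched by Ensembl identifier. Exon lengths are the union of a gene's exons.

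Here the counts were scaled by TMM (factors 0.9535 to 1.054) and filtered with filterByExpr, which left 20818 genes. edgeR 4.0.16 (R 4.3.3) fitted group means to all 12 tumors in 1 quasi-likelihood model (common dispersion 0.1081), giving 8 comparisons with Benjamini-Hochberg adjustment over all genes tested. A call needed an adjusted p-value under 0.05 and 1.5-fold. Intervals are at 95% and use the model's total degrees of freedom, residual and prior together (12.4 in the fit to all tumors). Each SE of an edgeR fold change is its absolute log2 value over the square root of the F statistic. Within-tumor ratios, with 2 counts added to each gene, were compared by exact two-sided permutation of 6 against 6 tumors, adjusted over 8 tests (scipy 1.17.1). Tumors were permuted without regard to the other factor, so that any difference due to it remained in the spread. An exact test of 3 against 3 tumors cannot go below p = 0.1, so that none was run. Replicates were no duplicates of each other, and each is a separate mouse by the protocols. Replicate numbers were not treated as pairs in the main fit. Deviations of tumors with the same number correlated at -0.124 to 0.172. These values show no strong shared effect but cannot exclude that such tumors were handled together. The scripts were tested on simulated data.

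Alternatives were DESeq2 1.42.0, its size factors, no filter, at least 10 counts in every tumor, no fold minimum, unadjusted p-values, only the groups compared, the replicate number as a block, counts divided by 4, 0 or 10 counts added in ratios, and each tumor left out. The 10 genes, the lists and the tests were chosen with earlier results of these data known. Named genes are the 10, the called genes of each list or up to 4 with the smallest p-values, and the 8 genes most like Cd3e. Some genes that this rule names are not reported here. Other named genes (Ptprc, Trdc and the examples of genes called without Control replicate 1) were chosen after their values were seen.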

Additional observations from a re-analysis of the deposited data

How the results depend on the processing

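Across alternatives other than leaving out a tumor, 515 of the single-gene fold changes kept their direction and side of the threshold, 13 passed it newly and 2 turned. Both turned with the replicate number as a block: Cd247 in ASC_As300 against Control (0.18) and Cd3d in ASC_As300 against ASC (-0.0373). The block, whose numbers are not known to pair tumors, called 1 of the 10 genes in ASC_As300 against As300 and 1 for the ASC effect. It changed no other count. Unadjusted p-values called 3 in As300 against Control (7.27% of all genes) and 8 in ASC_As300 against As300 (5.47%). They called 8 for the ASC effect (4.59%), 1 for the iAs effect (3.29%) and 1 for the interaction (5.82%). In ASC_As300 against As300, DESeq2 called 2 (0.912% of genes called up) and the fit to only the groups compared 7 (1.16%). A minimum of 10 counts in every tumor called 1 there. For the ASC effect DESeq2 called 3 (1.16% of genes called up). The share of all genes called is not given here for the minimum of 10 counts or for the block. With 10 counts added, the Cd8b1 to Cd8a ratio differed by -0.0436 with ASC. The cause of these differences was not tested.

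With 1 tumor left out, the called genes numbered 0 to 7 for ASC against Control, 0 to 5 for ASC_As300 against Control, 0 to 7 for ASC_As300 against As300 and 0 to 9 for the ASC effect, each highest without Control replicate 1, and 0 in each of the other 4 comparisons. Without Control replicate 1, the shares of all genes called up in the comparisons named were 0.979%, 0.919%, 1.07% and 1.86%, in that order. The ratio differences ran from 2.36 to 2.85 (Cd8a to Cd4, ASC), -0.89 to -0.001265 (Cd8a to Cd4, iAs), -0.0303 to 0.322 (Cd8b1 to Cd8a, ASC), -0.336 to 0.0168 (Cd8b1 to Cd8a, iAs), 1.35 to 1.94 (Cd3e to Ptprc, ASC), -0.38 to 0.44 (Cd3e to Ptprc, iAs), -1.18 to -0.91 (Cd247 to Cd3e, ASC) and -0.375 to 0.0831 (Cd247 to Cd3e, iAs).

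Over the 12 fits with a tumor left out, 43 single-gene fold changes turned, 29 passed the threshold newly, 10 fell short of it and 878 did neither, and those that turned had these ranges. In ASC against Control, Cd247 -0.0789 to 1.89 and Trbc1 -0.0669 to 1.23. In As300 against Control, Cd3d -1.43 to 0.25, Cd3e -2.03 to 0.53, Cd3g -1.75 to 0.27, Cd247 -1.63 to 0.33, Cd8b1 -2.85 to 0.24, Trac -1.49 to 0.33, Trbc1 -1.23 to 0.062 and Trbc2 -2.12 to 0.17. In ASC_As300 against Control, Cd247 -0.48 to 1.49, Cd4 -0.77 to 0.14 and Trbc2 -0.11 to 2.18. In ASC_As300 against ASC, Cd3d -0.13 to 0.14, Cd3e -0.40 to 0.20, Cd4 -0.13 to 0.33, Cd8a -0.27 to 0.32, Trac -0.34 to 0.39, Trbc1 -0.0793 to 0.33 and Trbc2 -0.50 to 0.0578. For the ASC effect, Cd4 -0.24 to 0.22. For the iAs effect, Cd3d -0.71 to 0.13, Cd3e -1.09 to 0.19, Trac -0.79 to 0.12, Trbc1 -0.58 to 0.0668 and Trbc2 -1.12 to 0.0221. For the interaction, Cd3d -0.24 to 1.44, Cd3e -0.67 to 1.89, Cd3g -0.66 to 1.37, Cd247 -0.74 to 1.23, Cd8b1 -0.71 to 2.38, Trac -0.42 to 1.48 and Trbc2 -0.30 to 1.99. No fold change of ASC_As300 against As300 turned. With 3 tumors a group, a single tumor can carry a comparison.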

Other observations

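Variable segments of the receptor genes are counted as genes of their own, and none of them is among the 10 genes of the report. Of 128 alpha chain V segments, 5 to 6 had a count in each As300 tumor, 16 to 18 in ASC_As300, 16 to 20 in ASC and 7 to 47 in Control, with the 47 in Control replicate 1. Their summed CPM, here over the total count without TMM scaling, were 0.399 to 0.72 in As300, 1.79 to 3.67 in ASC_As300, 2.07 to 3.14 in ASC and 0.525 to 4.4 in Control. The 35 beta chain V segments gave 0.464 to 1.29, 2.93 to 4.79, 2.57 to 4.78 and 0.722 to 7.63 in the same order. A segment count is a sum over rearranged transcripts, rests on 22 to 359 counts a tumor, and gives no number of clones.

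Among the constant genes of the gamma delta receptor, which replaces the alpha beta receptor on a smaller T cell class, Tcrg-C2 was called with ASC over both iAs levels (3.63 on the log2 scale, SE 0.63, edgeR adjusted p = 0.00748). It measured 2.09, 1.82 and 2.63 CPM in ASC and 1.45, 0.770 and 1.17 in ASC_As300, against 0.558 in Control replicate 1 and 0 to 0.239 in the other tumors. The gamma constant genes are similar in sequence, so that this value is uncertain as that of 1 gene. Trdc, the delta chain constant gene, did not pass the test (0.39, SE 0.52, adjusted p = 0.868).

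Rag1, whose product rearranges receptor genes in developing lymphocytes, had no count in any of the 12 tumors.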
